A study of Mus musculus with 18 samples.

Results

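Undivided bulge cells from mouse skin at postnatal day (PD) 21 were set against non-bulge cells of the same 3 mice, on 6 of the 18 expression arrays of the study. The 6 arrays were chosen by their labels, which name the fraction, the chase and the mouse: 3 hold bulge cells with 0 divisions and 3 hold non-bulge cells, 1 array of each per mouse. Every mouse carried K5tTA, brought in from FvB, and pTREH2B-GFP, brought in from CD1, so that the keratin 5 promoter of basal epithelial cells drove a histone H2B-GFP label. Doxycycline, mixed at 1 g per kg into the food from PD18 to PD21, stopped the synthesis of the label, which each division of a cell then diluted. Cells were sorted on surface CD34 and α6-integrin and, for the bulge, on the GFP they had kept. The labels give no division number for the non-bulge cells, so their division history is not known here. Divided bulge cells (1 to 2 divisions) of the same 3 mice, and the undivided bulge and non-bulge cells of 3 other mice fed doxycycline from PD22 to PD25 and collected at PD25, served as further groups of 3 arrays each.

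The bulge is the part of the outer root sheath of the hair follicle where hair follicle stem cells rest between rounds of hair growth. Its cells are known for surface CD34, for transcription factors such as Lhx2, Sox9, Nfatc1 and Tcf7l1, and for secreted inhibitors of Wnt and BMP signalling. Basal cells of the interfollicular epidermis, of the upper follicle and of the sebaceous gland carry α6-integrin and keratins 5 and 14 but not CD34, and fall outside a CD34 gate.

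Values are intensity signals that the authors' software GCOS scaled to the same trimmed mean of 500 on every array. Fold changes are differences of log2(signal + 16), undivided bulge minus non-bulge, each with its standard error from a limma fit with the mouse as a block. A gene passed where the Benjamini-Hochberg adjusted p over 11569 genes was under 0.05, and each fold change rests on 3 mice. Array medians were 60.3 to 105.3 for undivided bulge and 72.2 to 115.2 for non-bulge cells, and signals under these medians are dim, so the addition of 16 shrinks folds that involve them. The arrays of mouse 3 stood apart from those of mice 1 and 2, in both fractions, with the highest medians and the smallest spread. Their SD of log2 values was 1.90 in undivided bulge and 1.86 in non-bulge cells, against 2.19 to 2.28 in undivided bulge and 2.12 to 2.22 in non-bulge cells of mice 1 and 2. No label calls this a batch, and each mouse holds both fractions, so the comparison was made within mice. The ratio of 3′ to 5′ Gapdh control signals, a sign of RNA length, was 8.58, 6.19 and 3.21 in undivided bulge cells of mice 1 to 3, against 7.15, 4.57 and 8.77 in non-bulge cells. The same ratio of Actb control signals was 1.00, 0.91 and 0.99 in undivided bulge, against 0.91, 0.95 and 1.23 in non-bulge cells. Neither ratio thus moved in 1 direction across the 3 mice. The undivided array had the larger Gapdh ratio in mice 1 and 2, and the larger Actb ratio in mouse 1 only. In mouse 3 both ratios were smaller on the undivided array, and the gap was the widest for each. A part of RNA length in the fold changes was not tested.

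The sort was visible in the transcripts. Cd34 gave signals of 8913, 5403 and 6491 in undivided bulge cells of mice 1 to 3, against 1.1, 1.1 and 25.1 in non-bulge cells. Lhx2, a LIM homeobox regulator of stem cells of the follicle, gave 3637, 3615 and 3365 in undivided bulge and 228, 154 and 194 in non-bulge cells. In both genes every undivided array lay far above every non-bulge array. Cd34 differed by 8.21 ± 0.42 (log2 fold change ± SE, limma adjusted p = 4.84e-11) and is no finding, since its protein was used in the sort, and its fold was between 6.57 and 10.45 across the alternative settings because the non-bulge signals are close to 0. Lhx2, which the sort did not use, differed by 4.11 ± 0.25 (adjusted p = 2.81e-10). Itga6, which encodes the other sorting marker, did not pass, at 9876, 10065 and 7109 in undivided bulge and 8752, 10852 and 7775 in non-bulge cells (-0.02 ± 0.15, adjusted p = 0.946). The pan-basal keratins Krt5 and Krt14 also did not pass, at 0.27 ± 0.13 (adjusted p = 0.157) and -0.18 ± 0.14 (adjusted p = 0.429). Among markers of non-bulge epidermis, Ly6d, a surface protein of the interfollicular epidermis, was lower in undivided bulge cells, at 1673, 1504 and 1589 against 6562, 7949 and 4488 (-1.95 ± 0.23, adjusted p = 1.97e-06). Gata3, a zinc finger factor of epidermis and inner root sheath, was lower too, at 1022, 918 and 1516 against 2893, 3628 and 3457 (-1.54 ± 0.22, adjusted p = 2.62e-05). The groups do not overlap in either gene. Both belong to a list of 18 basal interfollicular genes that was divided, with 7 lower and 5 higher (Thbs1, Itgb4, Sostdc1, Itgb1 and Col17a1) and a median of -0.10.

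**Figure D1:**
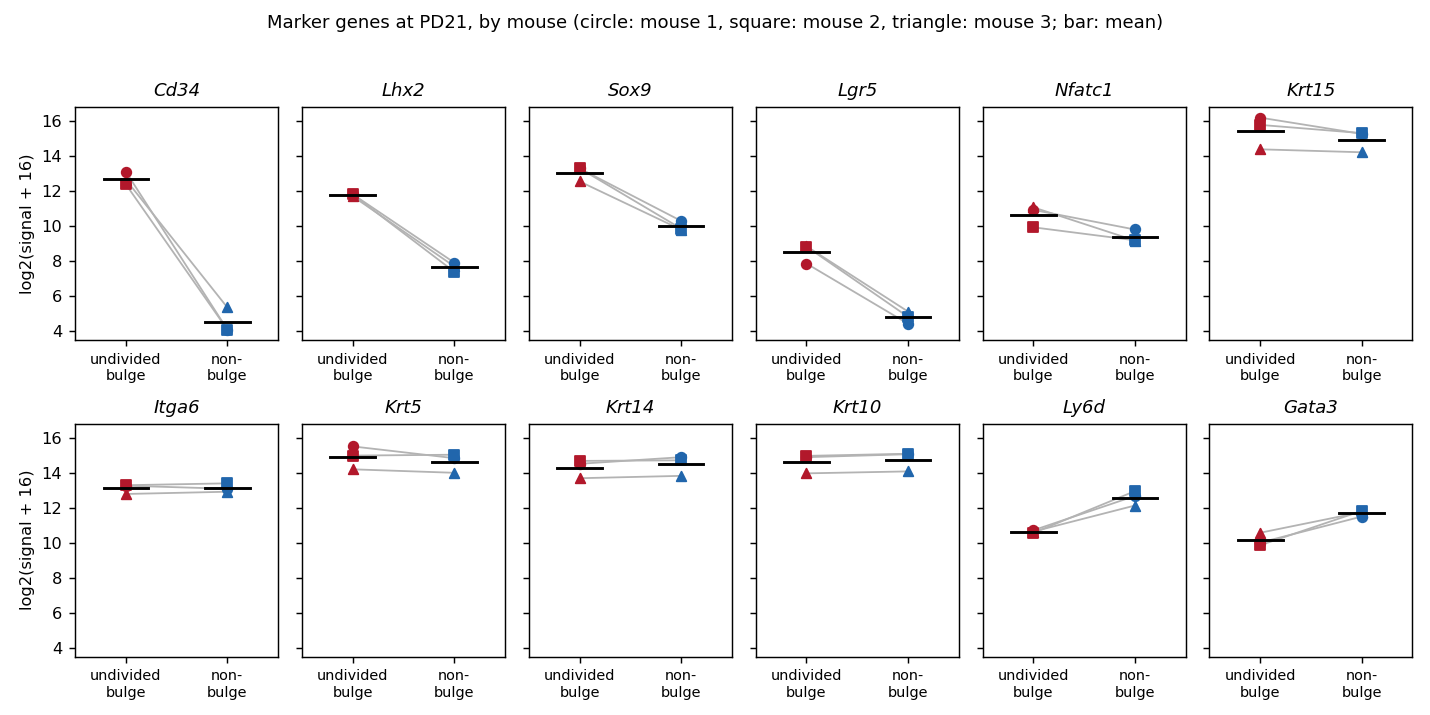
Levels of 12 marker genes on the log2(signal + 16) scale in undivided bulge (red) and non-bulge cells (blue) at PD21, with a line joining the 2 fractions of a mouse and a black bar at the mean of 3 mice. Cd34, Lhx2, Sox9 and Lgr5 separate the fractions, while Itga6, Krt5, Krt14 and Krt10 lie at nearly the same height, and the arrays of mouse 3 sit lower in genes of high signal.

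Of 11569 genes, 1926 passed at PD21 (16.6%), 1043 higher (9.02%) and 883 lower (7.63%) in undivided bulge cells. In 1903 of the 1926 all 3 mice agreed in direction. In 1675 the undivided arrays did not overlap the non-bulge arrays, against 3013 genes (26.0%) without overlap among all those tested. The within-mouse test on these same arrays favours both outcomes, so the 2 counts are a description and no added support. The median size of the change among genes that passed was 1.53 on the log2 scale, and the median over all genes tested was -0.05. Changes of at least 3 log2 units numbered 160 upwards and 60 downwards. Without the mouse as a block 1278 genes passed, and the count was 1131 without the arrays of mouse 1 and 1266 without its undivided bulge array alone. Gene lists for pathways and cell types were chosen with earlier results of these data known, so each count below is set beside the shares of all genes, 9.02% higher and 7.63% lower, as a description and not as a test.

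**Figure D2:**
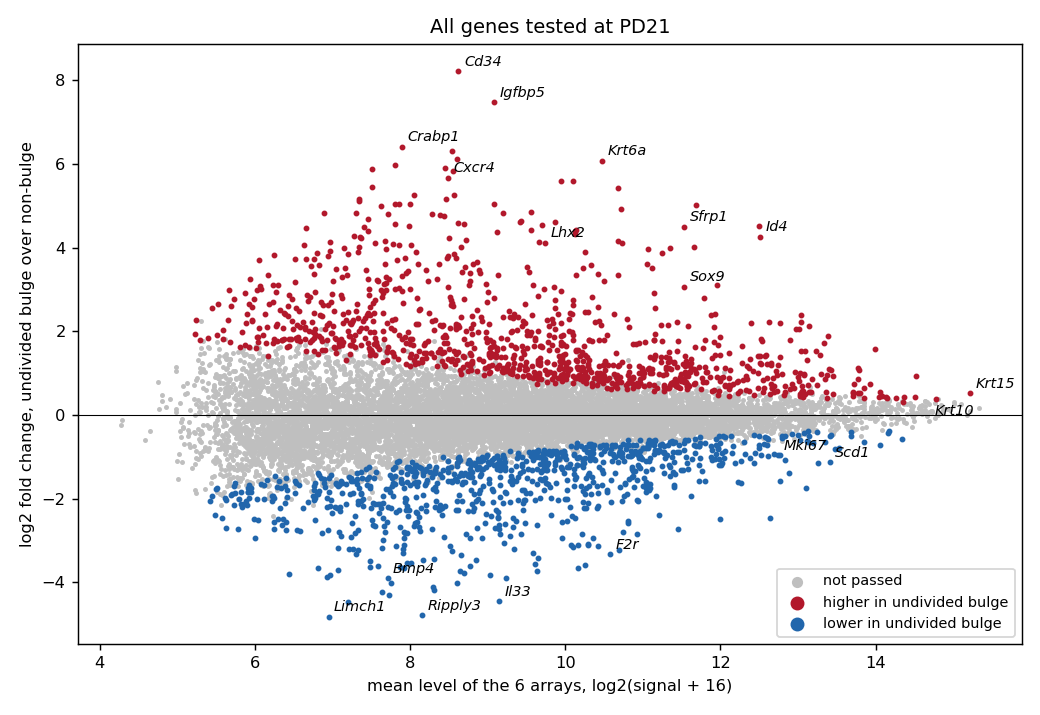
Each point is 1 of 11569 genes, with its mean log2(signal + 16) over the 6 arrays on the x axis and its log2 fold change, undivided bulge over non-bulge at PD21, on the y axis. Red points passed as higher (1043) and blue points as lower (883) in undivided bulge cells, and the increases reach 8.21 while the decreases end at -4.82.

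Transcription factors of the follicle were higher in the larger part of their list. Of 23 measured hair follicle transcription factors, 15 were higher, 4 were lower and 4 did not pass, with a median of 1.39 on the log2 scale. Tbx1, a T-box factor of bulge cells, gave 5266, 3622 and 3352 in undivided bulge, against 155, 110.5 and 228 in non-bulge cells. Sox9, an HMG-box factor needed for the formation of bulge stem cells, gave 10162, 10212 and 6068 in undivided bulge and 1256, 923 and 883 in non-bulge cells. Lef1, the partner of beta-catenin that marks hair germ and matrix, gave 1591, 1191 and 1514 in undivided bulge and 98.6, 49.5 and 119.7 in non-bulge cells. In these 3 genes the lowest undivided signal was several times the highest non-bulge signal. Their fold changes were 4.53 ± 0.34 (adjusted p = 4.02e-09), 3.07 ± 0.22 (adjusted p = 2.32e-09) and 3.84 ± 0.46 (adjusted p = 2.55e-06). Runx1, a runt-domain factor that promotes the activation of hair follicle stem cells, was higher by 2.58 ± 0.22 (adjusted p = 2.14e-08), although the lowest of its 6 probe sets stood at -0.05. Hoxc13, a homeobox regulator of hair keratins, was higher by 3.47 ± 0.46 (adjusted p = 9.88e-06), and Tcf7l1, a mostly repressive TCF factor of stem cells, by 2.44 ± 0.51 (adjusted p = 0.0015).

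Nfatc1, a calcineurin-dependent factor known for holding bulge cells in quiescence, gave 1952, 970.4 and 2164 in undivided bulge and 888, 574 and 568 in non-bulge cells. The fractions do not overlap, and mouse 2 had the smallest difference. The fold was 1.25 ± 0.25 (adjusted p = 0.00107), and adjusted p = 0.0543 without mouse 3. Among the decreases, Sox6, a SoxD factor, gave 112, 27 and 41.5 in undivided bulge, against 776, 998 and 786 in non-bulge cells (-3.67 ± 0.51, adjusted p = 1.81e-05). Of 19 transcription factors of the epidermis, 2 were higher and 6 were lower, with a median of -0.47, and the 2 increases (Prdm1 and Nr3c1) both failed to pass without mouse 1. Ripply3, a transcriptional corepressor that binds T-box factors, gave 8.3, 131 and 29 in undivided bulge and 1735, 1318 and 1413 in non-bulge cells. Ehf, an epithelial ETS factor, gave 54.8, 119.9 and 32.9 in undivided bulge and 679, 245 and 854 in non-bulge cells. Both were lower in each mouse with no overlap, Ripply3 by -4.78 ± 0.50 (adjusted p = 3.55e-07) and Ehf by -2.80 ± 0.52 (adjusted p = 0.000485). Klf5, a zinc finger factor of proliferating epithelium, was lower at -1.72 ± 0.25 (adjusted p = 3.64e-05).

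Promoter windows of 250 bases before and 50 after the start site were taken from RefSeq (GRCm38.p6), with the first listed window of a gene, for 9377 of the tested genes. They were searched on both strands for letters that these factor families are known to bind. The LIM homeobox letters TAATTA occurred in 1.73% of 811 windows of higher genes, 3.04% of 690 windows of lower genes and 2.22% of all 9377. The Runx letters TGTGGT occurred in 9.74% of windows of higher genes and 9.57% of those of lower genes, against 12.0% of all. The AP-1 letters TGACTCA occurred in 2.84% of windows of higher genes and 5.22% of those of lower genes, against 3.55% of all. The Sox letters ACAATG were in 6.66% of windows of higher genes, 5.94% of those of lower genes and 6.94% of all, and the TCF/LEF letters CTTTGAT were in 2.34% of windows of higher genes, 2.61% of those of lower genes and 2.52% of all. No motif contains another, but matches of different motifs can share bases at their ends, as those of Sox and Runx can. None of the shares among higher genes exceeded that of all windows. To show such windows, the 250 bases before the start site are printed for Lhx2, the marker of the bulge, in which none of the letters were found, and for 3 lower genes that hold some of them, chosen after their values were seen. Capitals mark the matches, and all sequences run 5′ to 3′ along the gene's strand.
Lhx2, chr2:38339031-38339280, plus strand: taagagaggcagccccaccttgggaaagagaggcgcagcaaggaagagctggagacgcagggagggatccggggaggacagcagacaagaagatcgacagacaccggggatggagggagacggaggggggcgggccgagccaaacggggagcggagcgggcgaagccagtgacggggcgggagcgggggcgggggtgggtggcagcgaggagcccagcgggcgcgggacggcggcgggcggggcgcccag
St3gal6, chr16:58524254-58524503, minus strand: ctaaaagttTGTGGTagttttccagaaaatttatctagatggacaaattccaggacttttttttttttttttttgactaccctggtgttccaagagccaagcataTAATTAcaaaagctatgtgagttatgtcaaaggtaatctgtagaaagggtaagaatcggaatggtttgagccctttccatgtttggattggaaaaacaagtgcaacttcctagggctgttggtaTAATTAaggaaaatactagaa
F2r, chr13:95618467-95618716, minus strand: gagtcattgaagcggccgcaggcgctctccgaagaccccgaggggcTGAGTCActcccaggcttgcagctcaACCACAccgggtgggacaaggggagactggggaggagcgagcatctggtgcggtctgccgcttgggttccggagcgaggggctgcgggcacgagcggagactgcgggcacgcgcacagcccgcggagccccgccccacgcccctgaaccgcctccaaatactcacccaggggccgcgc
Il1rn, chr2:24336610-24336859, plus strand: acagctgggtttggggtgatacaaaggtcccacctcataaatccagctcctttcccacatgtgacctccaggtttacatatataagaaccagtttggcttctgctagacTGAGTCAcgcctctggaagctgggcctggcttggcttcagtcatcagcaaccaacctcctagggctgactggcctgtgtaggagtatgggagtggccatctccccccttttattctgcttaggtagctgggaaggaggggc
In St3gal6 the Runx letters TGTGGT begin 241 bases before the start site and the LIM homeobox letters TAATTA begin 145 and 21 bases before it. In F2r the AP-1 letters TGAGTCA begin 204 and the Runx letters ACCACA 178 bases before the start site, and in Il1rn the AP-1 letters TGAGTCA begin 141 bases before it. A match describes the letters only.

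St3gal6, a sialyltransferase, gave 10.5, 27.8 and 10.4 in undivided bulge, against 602, 785 and 648 in non-bulge cells (-4.46 ± 0.58, adjusted p = 7.94e-06). F2r, the thrombin receptor PAR1, gave 248, 867 and 475 in undivided bulge and 4345, 6223 and 4185 in non-bulge cells (-3.32 ± 0.34, adjusted p = 2.82e-07). In both genes every non-bulge signal was several times the highest undivided signal.

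Known bulge markers were higher as a group. Of 28 measured bulge stem cell markers, among them Cd34 and several factors above, 24 were higher and 1 was lower, with a median of 1.97. The lower gene was Il1r2, a decoy receptor for interleukin 1, at 214, 75.7 and 111 in undivided bulge and 2600.5, 1424 and 2037 in non-bulge cells (-3.83 ± 0.48, adjusted p = 4.13e-06). Ccn2, a matricellular protein also called CTGF, gave 32484, 16403 and 12454 in undivided bulge, against 548, 442 and 736 in non-bulge cells (5.02 ± 0.51, adjusted p = 2.55e-07). Krt15, the keratin long used as a bulge marker, gave 76276, 57196 and 21702 in undivided bulge and 40055, 41268 and 19304 in non-bulge cells. It was higher in each mouse, but the fractions overlap across mice, since both signals of mouse 3 lay below those of the other mice. Its fold was 0.52 ± 0.13 (adjusted p = 0.00502), adjusted p = 0.646 without the mouse as a block and adjusted p = 0.191 without mouse 1.

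The largest increases after Cd34 covered secreted proteins, receptors and matrix. Igfbp5, an IGF binding protein, gave 6937, 8516 and 6303 in undivided bulge, against 28.7, 2.2 and 66.6 in non-bulge cells (7.47 ± 0.55, adjusted p = 3.47e-09). Crabp1, a cytoplasmic retinoic acid binding protein, gave 2419, 1864 and 2278 in undivided bulge and 4.6, 3 and 27.7 in non-bulge cells (6.41 ± 0.55, adjusted p = 2.27e-08). Cxcr4, the receptor of the chemokine CXCL12, gave 3109, 3811 and 1392 in undivided bulge and 3.9, 61.4 and 67.4 in non-bulge cells (5.67 ± 0.47, adjusted p = 1.61e-08). In all 3 the undivided signals were bright and the non-bulge signals lay under the medians of their arrays. Krt6a, a keratin of the companion layer and outer root sheath, was higher by 6.08 ± 0.44 and the hair keratin-associated gene Krtap17-1 by 6.12 ± 0.38. Sema3e, a secreted semaphorin, stood at 8752, 6217 and 5949 in undivided bulge and 75.3, 61.4 and 393 in non-bulge cells, with mouse 3 the highest of the non-bulge arrays (5.59 ± 0.39, adjusted p = 2.11e-09). The remaining members of the 15 largest increases were Col8a2, Armcx2, Scrg1, Sorbs2, Dab2, an endocytic adaptor, Cspg4, Ltbp2 and Shisa2, between 5.42 and 6.31. Cxcl12, the ligand of Cxcr4, was also higher, at 1511, 1317 and 996 in undivided bulge and 177, 53 and 229 in non-bulge cells (3.10 ± 0.45, adjusted p = 2.62e-05).

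The largest decreases were taken among genes whose non-bulge mean lay above the median group level. Limch1, which activates non-muscle myosin, gave 3.1, 4.2 and 16.8 in undivided bulge, against 316, 939.5 and 879 in non-bulge cells (-4.82 ± 0.58, adjusted p = 2.50e-06). Il33, a nuclear alarmin of barrier epithelia, gave 114, 174 and 55.5 in undivided bulge and 2586, 3553 and 1976 in non-bulge cells (-4.45 ± 0.38, adjusted p = 2.10e-08). Dpp4, the surface peptidase CD26, gave 78.5, 233 and 22.2 in undivided bulge and 823, 1993 and 2252 in non-bulge cells, with the widest difference in mouse 3 (-4.02 ± 0.53, adjusted p = 9.02e-06). The fractions do not overlap in any of the 3. Phldb2, a cortical microtubule anchor, was lower at -4.11 ± 0.48, Akr1c18, a steroid-metabolising reductase, at -3.90 ± 0.40, and Bex1 at -4.01 ± 0.67. Spata13, Efemp1, Slc16a9, Bmp4, Il1r2, Ppp2r2c and Cpxm2, with Ripply3 and St3gal6, completed the 15 and lay between -4.78 and -3.73. In these sorted bulk samples fewer cells of a type and less RNA per cell cannot be told apart, which applies to each gene here.

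**Figure D3:**
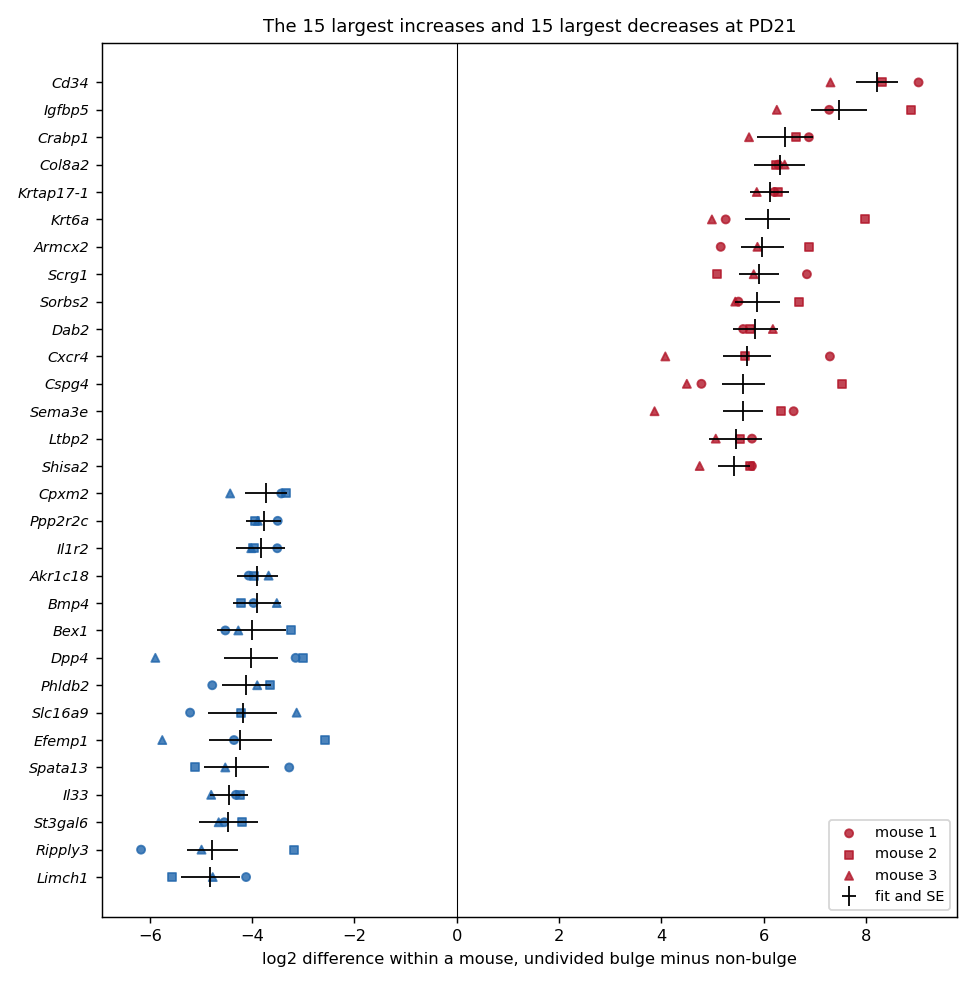
The 15 largest increases and 15 largest decreases at PD21, with the within-mouse log2 difference, undivided bulge minus non-bulge, of mice 1 to 3 as symbols, and the fitted fold change with its SE as black crosses. The choice of genes without overlap puts every mouse on the side of the fit, and the spread between mice is widest in genes such as Krt6a and Efemp1.

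Signalling genes split by role, beginning with Wnt. Of 18 named secreted Wnt modulators only 5 were measured, and 4 of these were higher, with a median of 2.12. The others, among them Dkk1, Sfrp2 and Rspo1 to Rspo4, had no probe set that was kept. The filter could keep a gene that is bright in a single fraction, so this share describes few genes. Of 16 Wnt ligands 1 was higher and 5 were lower, with a median of -0.79. These counts were 1 and 3 without mouse 1 or either of its arrays. Dkk3, a Dickkopf family member, gave 11610.4, 7159.7 and 9585 in undivided bulge and 283, 150.3 and 566 in non-bulge cells (4.92 ± 0.28, adjusted p = 1.64e-10). Sfrp1, a secreted frizzled-related inhibitor, gave 17626, 16638 and 9482 in undivided bulge and 628, 453 and 790.4 in non-bulge cells (4.49 ± 0.27, adjusted p = 2.81e-10). The undivided signals of both genes were many times the non-bulge signals in each mouse. Sostdc1, an inhibitor of Wnt and BMP signalling, was higher by 0.93 ± 0.16 within mice (adjusted p = 0.000294; 0.362 without the mouse as a block), and its fractions overlap across mice. Wif1, a Wnt-binding inhibitor, was higher by 2.12 ± 0.52 (adjusted p = 0.00593; 0.0778 without mouse 3). The ligand Wnt3 was lower, at 42.5, 105 and 45.6 in undivided bulge and 557, 1228 and 950.0 in non-bulge cells (-3.54 ± 0.47, adjusted p = 1.08e-05), and Wnt16 was lower at -2.95 ± 0.63. Wnt5b, a non-canonical ligand, was the higher one, at 688, 459.9 and 1026 in undivided bulge and 99.9, 138 and 106 in non-bulge cells (2.44 ± 0.42, adjusted p = 0.000189).

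Of 19 Wnt receptors 10 were higher and 2 were lower, with a median of 0.99. The number higher was 7 without mouse 1 or its non-bulge array, 8 without mouse 3 and 11 without mouse 2. The frizzled receptor Fzd2 gave 12345, 10307 and 8945 in undivided bulge and 406, 981 and 659 in non-bulge cells (3.99 ± 0.28, adjusted p = 1.99e-09). Fzd1 was higher by 3.52 ± 0.29. Lgr5, the R-spondin receptor of cycling and lower bulge stem cells, gave 218, 444 and 449 in undivided bulge, against 5.6, 12.4 and 19 in non-bulge cells (3.73 ± 0.51, adjusted p = 1.44e-05). Its non-bulge signals were dim on all 3 arrays. Fzd10 ran the other way, at 17.9, 47.3 and 50.4 in undivided bulge and 230.3, 708 and 648 in non-bulge cells (-3.23 ± 0.45, adjusted p = 1.48e-05). Among 19 Wnt effectors and targets 5 were higher and 2 were lower (3 and 1 without mouse 2), and the lower ones were feedback inhibitors: Apcdd1, a membrane-bound Wnt inhibitor, at 5881, 7994 and 2329.8 in undivided bulge and 21121, 20924 and 9516 in non-bulge cells (-1.75 ± 0.20, adjusted p = 1.08e-06), and Axin2.

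Genes of bone morphogenetic protein (BMP) signalling differed by member. Bmp4, a ligand that keeps follicle stem cells at rest, gave 41.7, 37.6 and 35.4 in undivided bulge, against 890.1, 985 and 573 in non-bulge cells (-3.90 ± 0.47, adjusted p = 3.09e-06). Grem1, a secreted BMP antagonist, gave 4693, 4644 and 3023 in undivided bulge and 118, 140.0 and 115 in non-bulge cells (4.85 ± 0.34, adjusted p = 2.26e-09). Fstl1, a follistatin-like secreted protein, gave 2324, 1578 and 2478 in undivided bulge and 24.2, 28.4 and 99.1 in non-bulge cells (5.16 ± 0.39, adjusted p = 4.47e-09). No array of one fraction reached the other in these 3 genes, with Bmp4 low and the other 2 high in undivided bulge. Of 17 BMP and activin ligands and antagonists 6 were higher and 2 were lower (3 and 2 without the mouse as a block), with a median of 0.06. Of 23 BMP and TGF-beta receptors, Smads and Ids 6 were higher, 3 were lower and 14 did not pass, with a median of 0.325. The lower ones were the receptors Bmpr1b, Tgfbr2 and Tgfbr3. Among the higher ones were the Id genes, targets of BMP signalling that block differentiation factors. Id4 stood at 40084, 31734 and 13209 in undivided bulge and 1327, 1806 and 969 in non-bulge cells (4.26 ± 0.36, adjusted p = 2.47e-08). Id3 was higher by 3.34 ± 0.33 (adjusted p = 2.21e-07), and Id1 and Id2 also passed as higher. The receptor Bmpr1b was lower, at 103, 38.1 and 29.3 in undivided bulge and 462, 878 and 484 in non-bulge cells (-3.17 ± 0.50, adjusted p = 7.26e-05). The inhibitory Smad7 was higher by 3.50 ± 0.56 (adjusted p = 9.01e-05), with mouse 3 far above the other undivided arrays (257, 170.3 and 2189.8).

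Most measured members of a list of TGF-beta ligands, latent binders and related matrix genes and integrins were higher. The higher ones were Ltbp1, Ltbp2, Ltbp3, Fbn2, Thbs1, Itgb6, Itgb8 and, as the only ligand, Tgfb3. Of 12 such genes 8 were higher, 0 were lower and 4 did not pass, with a median of 1.55 and a lowest fold of 0.045. The number higher was 6 without mouse 1, either of its arrays or mouse 3. Ltbp2, which binds fibrillin in the matrix, gave 1727, 798 and 1218 in undivided bulge, against 15.9, 1.5 and 20.9 in non-bulge cells (5.46 ± 0.52, adjusted p = 1.09e-07). Ltbp1, which anchors latent TGF-beta, gave 6308, 3369.8 and 4816 in undivided bulge and 419, 181 and 359 in non-bulge cells (3.89 ± 0.31, adjusted p = 9.59e-09), while its other probe set stood at 0.53. The ligand Tgfb3 gave 1864, 2615 and 2321 in undivided bulge and 436, 52.8 and 568 in non-bulge cells (3.10 ± 0.52, adjusted p = 0.000156). The undivided arrays of the 3 genes lie above the non-bulge arrays throughout, and non-bulge mouse 2 has the lowest signal of each. Itgb6 and Itgb8, integrin subunits whose receptors activate latent TGF-beta, were higher by 2.63 ± 0.34 and 2.76 ± 0.37.

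Other growth factor pathways gave smaller groups. Of 20 FGF pathway genes 8 were higher and 2 were lower. These counts were 5 and 1 without mouse 1, 4 and 1 without its undivided bulge array, and 5 and 3 without the non-bulge array of mouse 2. Fgfr1 gave 5068, 3664 and 4785 in undivided bulge and 449, 182 and 542 in non-bulge cells (3.59 ± 0.29, adjusted p = 8.82e-09). The ligand Fgf1 was higher by 4.22 ± 0.40 (adjusted p = 1.14e-07), and Dusp6, a phosphatase induced by ERK, by 1.70 ± 0.28 (adjusted p = 0.000146). Of 14 EGF family genes 2 were higher and 3 were lower, or 0 and 3 without mouse 2 and 0 and 2 without the undivided bulge array of mouse 1. Epgn, the ligand epigen, gave 57.4, 204 and 112 in undivided bulge and 898, 1706 and 1352 in non-bulge cells, with no overlap (-3.34 ± 0.36, adjusted p = 7.48e-07). Of 15 Hedgehog pathway genes 7 were higher and 2 were lower, but 2 and 0 passed without mouse 1, 4 and 1 without mouse 2, mouse 3 or the non-bulge array of mouse 1, and 3 and 1 without the mouse as a block or without the undivided bulge array of mouse 1. Boc, a Hedgehog co-receptor that passed in every setting, gave 2324, 1439 and 2764 in undivided bulge and 496, 477 and 563 in non-bulge cells (2.01 ± 0.28, adjusted p = 1.92e-05). Of 17 Notch pathway genes 3 were higher and 2 were lower, or 1 and 1 without mouse 1 or either of its arrays, and 1 and 2 without mouse 3, its non-bulge array or the undivided bulge array of mouse 2. Lfng, a glycosyltransferase that tunes Notch, was higher by 1.79 ± 0.29 (adjusted p = 0.000102), and the ligand Dll1 was lower, at 995, 707 and 975 in undivided bulge and 2011, 1882 and 4686 in non-bulge cells (-1.55 ± 0.26, adjusted p = 0.000153).

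Matrix genes that passed were mostly higher. Of 26 proteoglycans and matricellular proteins 17 were higher and 3 were lower, with a median of 1.58. Of 23 collagens 11 were higher and 0 were lower, or 7 and 0 without mouse 1 or its undivided bulge array and 7 and 1 without its non-bulge array, and of 19 integrins and laminins 8 were higher and 0 were lower. Cspg4, the transmembrane proteoglycan NG2, gave 9483, 6749.7 and 6989.7 in undivided bulge and 329, 20.8 and 294 in non-bulge cells (5.60 ± 0.42, adjusted p = 4.02e-09). Col8a2, a short-chain network collagen, gave 3872, 2217 and 4218 in undivided bulge and 33.9, 13.4 and 33.8 in non-bulge cells (6.31 ± 0.49, adjusted p = 6.70e-09). Col5a2, a fibrillar collagen chain, gave 1005, 594 and 1372 in undivided bulge and 1.7, 1 and 54.5 in non-bulge cells (5.11 ± 0.44, adjusted p = 2.48e-08). Both collagens were dim on every non-bulge array and bright on every undivided array. Col4a4, a basement membrane collagen, was higher by 4.28 ± 0.46 and Itga1, the collagen-binding integrin α1, by 3.20 ± 0.48. Sparc, a collagen-binding matricellular protein, gave 27655, 19620.1 and 12991 in undivided bulge and 3287, 4919.7 and 3055 in non-bulge cells (2.38 ± 0.24, adjusted p = 2.32e-07). Timp2, a metalloproteinase inhibitor, was higher by 4.40 ± 0.25 (adjusted p = 1.64e-10). Efemp1, a fibulin, ran the other way at -4.23 ± 0.62.

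Several of these matrix genes also stand in a list of dermal fibroblast and papilla markers, of which 6 of 14 measured were higher (Crabp1, Col1a1, Col6a1, Col5a1, Fbln1 and Sparc) and 1 was lower (Thy1). The summed signal of the list was 27061 to 41554 in undivided bulge, against 8843 to 9864 in non-bulge cells. Col1a1, a chain of type I collagen, gave 1109, 714 and 896 in undivided bulge and 6.1, 39.2 and 107 in non-bulge cells (4.09 ± 0.53, adjusted p = 7.63e-06). The defining fibroblast markers Pdgfra, Lum and Dcn were under the array median on all 6 arrays, with signals up to 42.9 in undivided bulge and up to 51.1 in non-bulge cells. Col1a2, the partner chain of Col1a1, gave 31.2, 23.2 and 49.4 in undivided bulge and 69.2, 134.4 and 47.1 in non-bulge cells, so it did not follow Col1a1.

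Most measured genes of the interleukin 1 family, and a minority of those of the interferon response, were lower. Of 8 interleukin 1 family genes 0 were higher and 6 were lower, with a median of -1.51. Il1rn, the receptor antagonist, gave 569.9, 286 and 126 in undivided bulge and 2014, 1776 and 1476 in non-bulge cells (-2.59 ± 0.32, adjusted p = 4.51e-06). Besides Il1rn, Il33 and Il1r2, the lower genes were the receptor Il1r1, its accessory chain Il1rap and the interleukin 36 receptor Il1rl2. Of 21 interferon response and antigen processing genes 0 were higher, 6 were lower and 15 did not pass, with a median of -0.86, and the count was 2 without mouse 2 or its undivided bulge array and 3 without the mouse as a block. Psmb8, an immunoproteasome subunit, gave 729, 184 and 619.5 in undivided bulge, against 1813, 1340.3 and 1602 in non-bulge cells (-1.80 ± 0.30, adjusted p = 0.00016). The undivided array of mouse 2 was the lowest of the 6. Of 12 measured immune cell markers none passed in limma, while 1 non-bulge array, that of mouse 1, had a summed signal of 5655, the highest of the 6. The sums were 1541 to 2211 in undivided bulge, and the lowest in non-bulge cells was 784. Cd3e, a T cell receptor component, gave 46.8, 155.5 and 167.7 in undivided bulge and 307.2, 32.4 and 36.6 in non-bulge cells. Without the non-bulge array of mouse 1, 5 interleukin 1 family genes and 6 interferon genes passed as lower. The interleukin 1 count was 4 without mouse 3. The part of immune cells in these results was not tested.

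Epidermal programmes moved in part. Of 18 basal interfollicular genes 5 were higher and 7 were lower, and of 27 epidermal differentiation genes 6 were higher and 7 were lower, both near a balance. Without the mouse as a block these counts were 2 and 7, and 1 and 3. The higher basal genes also numbered 2 without mouse 1 or either of its arrays, and 3 without the non-bulge array of mouse 3 or the undivided bulge array of mouse 2. The differentiation counts were 2 and 5 without mouse 2, 2 and 7 without its non-bulge array, 2 and 6 without its undivided bulge array, 3 and 5 without the undivided bulge array of mouse 1, and 4 and 4 without mouse 3 or its undivided bulge array. Tgm3, the transglutaminase of the cornified envelope, gave 149.8, 145 and 83.7 in undivided bulge and 2031, 1128 and 1516 in non-bulge cells (-3.46 ± 0.41, adjusted p = 2.39e-06). Calml3, a calmodulin-like protein of stratified epithelia, gave 17414, 15088 and 8456 in undivided bulge and 1557, 809 and 387 in non-bulge cells (4.02 ± 0.30, adjusted p = 3.65e-09). The 2 genes separate the fractions in opposite directions. Krt10 of suprabasal cells did not pass, at 30652, 32243 and 16127 in undivided bulge and 34417, 35123 and 17427 in non-bulge cells (-0.13 ± 0.13, adjusted p = 0.525). Krt24 was higher by 4.10 ± 0.43 (adjusted p = 3.55e-07). Of 25 cadherins, desmosomal proteins, claudins and connexins 0 were higher and 6 were lower. That count was 2 without mouse 3 and 3 without mouse 1, without either of its arrays, without the undivided bulge array of mouse 2, without the non-bulge array of mouse 3 or without the mouse as a block. Dsg2, a desmosomal cadherin, gave 910.5, 1992 and 932 in undivided bulge and 4321, 3258 and 3495 in non-bulge cells (-1.61 ± 0.26, adjusted p = 0.000103), and all of its 6 probe sets were lower. Among 17 sebaceous gland genes 3 were higher and 5 were lower. Pparg, the nuclear receptor of sebocyte differentiation, gave 30, 27.9 and 8.1 in undivided bulge and 382, 75.8 and 416 in non-bulge cells (-2.78 ± 0.54, adjusted p = 0.000755).

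Guidance molecules changed in both directions, with 9 of 31 higher and 4 lower, or 5 and 3 without mouse 1 and 5 and 4 without its non-bulge array. Beside Sema3e, the receptor Robo1 was lower, at 242, 566 and 528 in undivided bulge and 2415, 2722 and 2332 in non-bulge cells (-2.53 ± 0.39, adjusted p = 6.62e-05), and Nrp2, a semaphorin and VEGF co-receptor, was lower at -2.30 ± 0.45. Each non-bulge array of both genes exceeded each undivided array.

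**Figure D4:**
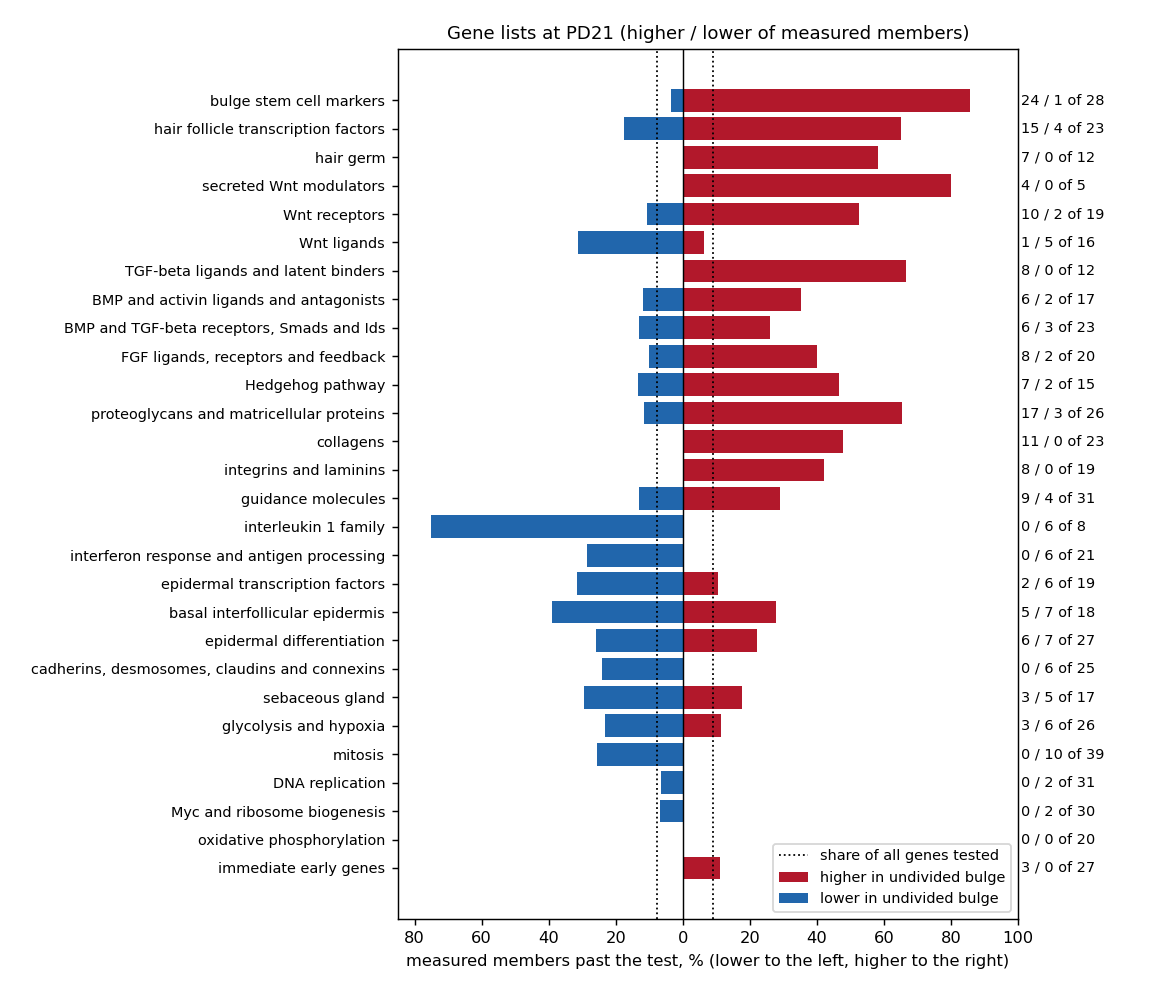
Shares of the measured members of 28 gene lists that passed as higher (red, to the right) or lower (blue, to the left) in undivided bulge cells at PD21, with counts at the right edge and the shares of all genes tested (9.02% and 7.63%) as dotted lines. Bulge markers, secreted Wnt modulators, the list of TGF-beta ligands and latent binders, and proteoglycans lie furthest to the right. The interleukin 1 family lies furthest to the left, and oxidative phosphorylation shows no member that passed. Only 5 of the 18 names in the list of secreted Wnt modulators were measured.

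Most genes of cell division did not pass, while the undivided fraction was gated on 0 divisions over the chase. Mki67, a chromatin surface protein of cycling cells, gave 4404, 7802 and 3409.8 in undivided bulge and 10118, 12538 and 6893 in non-bulge cells. It was lower in undivided bulge in each mouse, while the fractions overlap across mice (-0.96 ± 0.19, adjusted p = 0.00072; adjusted p = 0.0526 without the mouse as a block). Top2a, a topoisomerase of dividing cells, did not pass, at 963, 1800.3 and 1122 in undivided bulge and 1781, 1590.1 and 2219 in non-bulge cells (-0.56 ± 0.29, adjusted p = 0.208), and it was higher in undivided bulge in mouse 2. Of 39 mitosis genes 0 were higher and 10 were lower, with a median of -0.80, and of 31 DNA replication genes 2 were lower, with a median of -0.30. The mitosis count rests on few arrays: it was 1 without the mouse as a block, 1 without mouse 1 or without its undivided bulge array, 3 without the non-bulge array of mouse 1 or the array of mouse 3 in either fraction, and 2 without mouse 3. It was 17 without the undivided bulge array of mouse 2. The replication count was 0 without mouse 1 or either of its arrays, and 4 without mouse 2 or its undivided bulge array. Cell cycle inhibitors did not move as 1 group, with 4 of 13 higher and 2 lower, and 0 and 1 without mouse 3 or its undivided bulge array. Cdkn1b, the inhibitor p27, was higher by 0.95 ± 0.26 (adjusted p = 0.0141; 0.22 without mouse 3), and Cdkn1a, the inhibitor p21, did not pass (-0.55 ± 0.24, adjusted p = 0.14). Ccnd1 did not pass either (0.14 ± 0.18, adjusted p = 0.661), while Ccnd3 was higher by 1.55 ± 0.32 (adjusted p = 0.00125) and Mycl was lower by -2.47 ± 0.40 (adjusted p = 9.36e-05).

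Few measured genes of oxidative phosphorylation, ribosome biogenesis and the immediate early response passed. Of 20 oxidative phosphorylation genes 0 passed in limma, with a median of -0.11, and of 30 ribosome biogenesis genes 0 were higher and 2 were lower, or 0 lower without mouse 2. Of 27 immediate early genes, which rise when tissue is dissociated, 3 were higher (Ccn1, Ier3 and Ier5) and 0 were lower (2 without mouse 2), with a median of -0.08. With the mean of all probe sets Ccn1 stood at 0.55 (limma adjusted p = 0.474) and Ier5 at 0.24 (adjusted p = 0.669). Ier3 had adjusted p = 0.131 without mouse 1. The control transcript Actb did not pass, at 37299.8, 40826 and 15866 in undivided bulge and 26902, 32289 and 14352 in non-bulge cells (0.32 ± 0.12, adjusted p = 0.089). Defining markers of other cell types were low but not all under the array median. Among endothelial, muscle, Merkel, melanocyte and red cell markers the brightest signal was 302.4 (Pmel, non-bulge mouse 1). Pmel was above the median on 4 of the 6 arrays, Dct and the T cell marker Cd3e on 3, Alas2 of red cells on 2, and Myh11 of smooth muscle and Pecam1 of endothelium on 1 each. The 4 measured melanocyte genes had summed signals of 1067 to 3838 in undivided bulge and 578 to 831 in non-bulge cells, with 1 of 4 higher. The 3 measured endothelial genes had sums of 224 to 341 in undivided bulge and 494 to 1280 in non-bulge cells, with 1 of 3 lower. Their part in other results was not tested. Mitf, a melanocyte factor, was higher by 2.27 ± 0.32 (adjusted p = 1.72e-05), while Tyrp1, a pigment enzyme of melanocytes, was under the array median on all 6 arrays and Dct, another, gave 69.3 to 104.8 in undivided bulge and 38.2 to 110.6 in non-bulge cells.

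The same fractions of 3 other mice at PD25 gave a repeat in other animals, although their arrays entered the same fit and so the errors, the filter and the probe set choice above. At PD25, 1700 genes passed (14.7%), 929 higher (8.03%) and 771 lower (6.66%) in undivided bulge cells. Of these, 1159 passed at both ages, which is 60.2% of the PD21 genes and 68.2% of the PD25 genes, and 1157 of them had the same direction. Of the 1926 genes that passed at PD21, 1830 kept their sign at PD25, while 69.7% of all genes tested had the same sign at both ages. Lhx2 gave 3378, 3739 and 3440.1 in undivided bulge and 212, 180.4 and 145 in non-bulge cells at PD25, a fold of 4.19 ± 0.25 beside 4.11 ± 0.25 at PD21. The higher genes of PD21 had a median of 1.59 at PD21 and 1.30 at PD25, and the lower genes -1.48 and -1.06. Genes chosen for passing at PD21 are on average more extreme there than in other mice, so these medians do not show a smaller effect at PD25. The 2 genes that passed with opposite signs were Ccna2, a cyclin of S phase and mitosis, and Fa2h, a fatty acid hydroxylase of sebaceous lipids, both lower at PD21 and higher at PD25. Fa2h stood at -0.96 ± 0.29 at PD21 and 0.90 ± 0.29 at PD25. At PD21 Fa2h did not pass without the mouse as a block (limma adjusted p = 0.253), without mouse 1 (0.203) or without mouse 3 (0.156). Neither Ccna2 nor Fa2h passed the test of the difference between the ages.

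The difference between the ages itself was tested in the same fit. It passed in 2 of 11569 genes (0.0173%) in limma, with 800 at an unadjusted p under 0.05, and no setting gave more than 5. Fcgbp, an IgG Fc binding mucin-like protein, gave 428, 293 and 560.3 in undivided bulge and 16319, 4048 and 5353 in non-bulge cells at PD25, beside 4415, 1915 and 2449.8 in undivided bulge and 9889, 6961 and 8444 in non-bulge cells at PD21. It was lower in undivided bulge at both ages, by -4.05 at PD25 and -1.60 at PD21, and the difference was -2.45 ± 0.37 (adjusted p = 0.015). Sparc gave 10295, 7397 and 7447 in undivided bulge and 7778, 7953 and 3916 in non-bulge cells at PD25. Its fold was 0.41 ± 0.24 at PD25, where it did not pass (adjusted p = 0.315), and the difference from PD21 was -1.97 ± 0.34 (adjusted p = 0.0457). Mki67 did not pass at PD25 (0.22 ± 0.19, adjusted p = 0.535), and its difference between the ages did not pass either (1.18 ± 0.26, adjusted p = 0.255). The mitosis list had a median of 0.58 at PD25, with 4 of 39 higher and 0 lower, beside -0.80 at PD21. Bex1 stood at 0.35 at PD25 against -4.01 at PD21, with adjusted p = 0.255 for the difference.

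**Figure D5:**
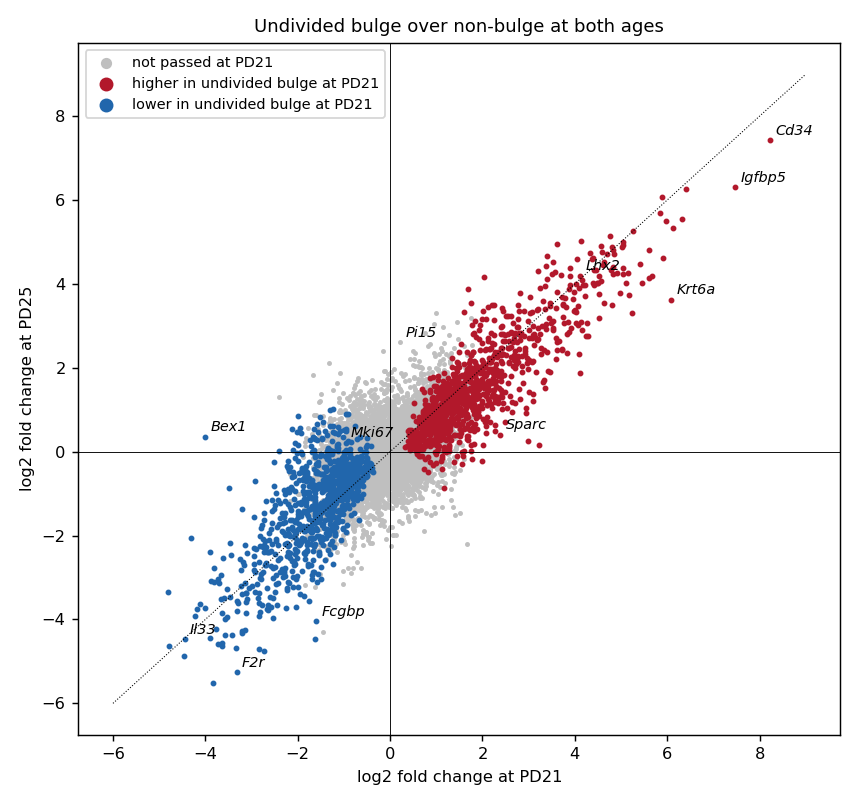
Log2 fold change, undivided bulge over non-bulge, at PD21 (x axis) and at PD25 (y axis, 3 other mice) for 11569 genes, with genes that passed at PD21 in red (higher) and blue (lower) and the dotted line of equal change. Most coloured genes keep their sign, Cd34 and Igfbp5 lie at the upper end at both ages, and Sparc, Fcgbp and Bex1 lie away from the line.

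Divided bulge cells of the same mice were set beside both fractions. Their comparison with undivided cells shares the undivided arrays with the comparison above, so its values stand side by side with it only. Divided and undivided bulge cells differed in 1533 genes (13.3%), 757 higher (6.54%) and 776 lower (6.71%) in divided cells. The total was 815 without mouse 1, 943 without its undivided bulge array and 954 without its divided bulge array. Genes that passed above were chosen on the undivided arrays, so the medians that follow are a description. The 1043 higher genes had a median of 0.39 in divided bulge minus non-bulge cells, beside 1.59 in undivided bulge minus non-bulge cells. The 883 lower genes had a median of -0.19 in divided bulge minus non-bulge cells, beside -1.48 in undivided bulge minus non-bulge cells. Lhx2 gave 898, 575 and 922 in divided bulge cells of mice 1 to 3 and Cd34 gave 568, 225 and 807, both above the non-bulge and below the undivided arrays given earlier. Igfbp5 gave 154, 34.8 and 664 in divided bulge cells, with mouse 3 the highest, and Il33 gave 1896, 1721 and 2016.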

How the data were processed

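RNA of sorted skin cells, amplified before labelling per the labels' protocols, was hybridised to 18 Affymetrix MOE 430 2.0 arrays, 1 for each fraction of a mouse. The deposited values are linear intensity signals from GCOS per the submitters' processing notes (version not given there), with a trimmed mean of 500 on every array, which was kept. Present calls were not used here.

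Of 45101 probe sets 34945 had 1 symbol in the platform annotation, 932 had several, 9160 had none listed and 64 were controls, and 34741 were matched to RefSeq by Entrez identifier with 0 symbols changed. Probe sets with 1 symbol that lay above their array's median on at least 3 arrays were kept, and the brightest on average represented its gene. Cdkn1c and Gapdh had no probe set that met both conditions and were not analysed here. Which condition they missed is not given here.

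All arrays were fitted as log2(signal + 16) with limma 3.58.1 (R 4.3.3; lmFit, eBayes with trend), using 6 group means and the mouse as a block, with 8 residual and 13.2 prior degrees of freedom. Benjamini-Hochberg adjustment ran over 11569 genes, and errors are standard errors of this fit. Titles give the fractions of an age the same mouse numbers. Deviations of undivided bulge and non-bulge arrays of the same mouse at PD21 correlated by 0.129, 0.104 and 0.392 for mice 1 to 3. Undivided bulge of mouse 1 with non-bulge of mouse 2 gave 0.099, and the reverse pair gave 0.071. Pairs of mouse 3 with another mouse gave -0.237 to -0.184. Only mouse 3 thus stood clearly apart from pairs of different mice. Deviations from a mean of 3 arrays cancel within a group, so the positive value of mouse 3 makes its other pairs negative on average. The arrays of mouse 3 also had the smallest spread in both fractions, so its value cannot show that the mouse is shared. The pairing rests on the titles. The number of mice limits the precision. The fit was tested on simulated data.

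Members and gene lists were chosen with earlier results of these data known. Named genes were the 15 strongest changes each way (passing, without overlap, and with the brighter group above the median group level), up to 4 passing members per list, a set of markers, and the 5 lowest p-values each way for the difference between ages. Alternatives varied the block, the addition, the filter, the probe set summary, the scaling, the arrays fitted, the variance trend and array weights, and left out single arrays. Leaving out a whole mouse was chosen after seeing the data.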

Additional observations from a re-analysis of the deposited data

Results flagged for a closer look

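In 2 genes the difference between undivided bulge and non-bulge cells was not the same at PD25 and PD21, by the test of the difference itself. Fcgbp had a difference of -2.45 ± 0.37 (log2 ± SE, PD25 minus PD21; limma adjusted p = 0.015), with -4.05 at PD25 and -1.60 at PD21, 3 mice each. Sparc had a difference of -1.97 ± 0.34 (adjusted p = 0.0457), with 0.41 at PD25 and 2.38 at PD21. Neither passed without the mouse as a block, where 0 genes passed (446 at an unadjusted p under 0.05). The number of genes that passed was between 0 and 5 when single arrays were left out, and 0 without any one PD21 mouse.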

How the results depend on the processing

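At PD21, between 1602 and 2195 genes passed under other additions, filters, scalings, probe set summaries, weights and fits of the same arrays, against the 1926 reported. The genes were not all the same. Of the 1926, 1624 passed with the same sign with the mean of all probe sets and 1500 without the variance trend. Of 1092 genes that passed and had more than 1 kept probe set, 120 had probe sets of opposite sign. Without the replicate block 1278 passed, each with the sign of the reported fold, and between 1131 and 1567 passed when an array or a mouse was left out. At PD25 1220 passed without the replicate block and 1147 to 1537 without single arrays, against 1700. The divided against undivided comparison gave 958 genes without the block and 815 to 1228 with arrays left out, against 1533. The difference between the ages, 2 genes as reported, gave 0 without the block, 0 with the mean of all probe sets, 0 without the variance trend, 1 with an addition of 1, with the filter of 9 arrays, with median centring or with array weights, 4 with the compared groups fitted alone, and 0 to 5 with arrays left out. Titles pair the arrays by mouse, and leaving out the block left every fold as it was. Of 179 named genes that passed at PD21, 115 passed in every alternative run for them (19 or 20 per gene) and 64 failed in at least 1, and none of the 179 changed sign. Krt5 and Actb, which did not pass, passed in at least 1. Signs changed in 4 genes that did not pass. Pi15 (0.22) was between -0.15 and 0.47 with arrays left out, being -0.01, -0.10 and -0.15 without the undivided array, the non-bulge array or all arrays of mouse 2. Itga6 (-0.02) was 0.037 after median centring and between -0.12 and 0.033 with arrays left out. Adh7 (-0.13) was between -0.39 and 0.016 with arrays left out, and Cdkn1a (-0.55) was 0.041 with the mean of all its probe sets. The causes were not tested. Quantities under the array median are limited by dim signal, so folds against them depend on the addition.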

Other observations

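Single genes of apoptosis, chromatin and metabolism also differed between the fractions at PD21, in lists that were divided. Of 13 BCL2 family genes 3 were higher and 3 were lower in undivided bulge cells, or 1 and 1 without mouse 1 or its undivided bulge array, 1 and 3 without mouse 3 or its non-bulge array, and 3 and 1 without mouse 2 or its undivided bulge array. Pmaip1, the BH3-only protein Noxa, gave 0.9, 46.5 and 19.5 in undivided bulge, against 731, 326 and 394 in non-bulge cells (-3.82 ± 0.50, limma adjusted p = 7.69e-06). Its undivided signals were dim on all 3 arrays. Among 23 polycomb and DNA methylation genes 2 were higher and 2 were lower, near the shares of all genes (9.02% and 7.63%). The number lower was 0 without mouse 2 and 1 without mouse 1, mouse 3, any 1 undivided bulge array or the non-bulge array of mouse 2, and the number higher was 1 without mouse 1 or either of its arrays. Cbx6, a subunit of polycomb repressive complexes, gave 3428, 4320.0 and 4516 in undivided bulge and 215, 325 and 554 in non-bulge cells (3.52 ± 0.27, adjusted p = 5.84e-09). Of 26 glycolysis and hypoxia genes 3 were higher and 6 were lower, or 1 and 3 without the mouse as a block. The number higher was also 1 without mouse 1, its non-bulge array, mouse 3 or its undivided bulge array. Epas1, the hypoxia-inducible factor HIF-2α, gave 377, 498 and 150.5 in undivided bulge and 3137, 4901 and 4379 in non-bulge cells (-3.66 ± 0.32, adjusted p = 3.39e-08), and Egln3, the oxygen-sensing hydroxylase PHD3, was lower at -1.70 ± 0.29. Hk2, a hexokinase, ran the other way at 1.78 ± 0.36.

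Of 27 cholesterol and fatty acid synthesis genes 4 were higher, 3 were lower and 20 did not pass, with 2 higher and 5 lower without mouse 2. Fads1, which introduces a double bond into polyunsaturated fatty acids, gave 2583, 2945 and 2093 in undivided bulge and 186, 74.9 and 82 in non-bulge cells (4.38 ± 0.42, adjusted p = 1.17e-07). Scd1, which makes monounsaturated fatty acids, was lower, at 8846, 8405 and 5298 in undivided bulge and 19664, 15496 and 13711 in non-bulge cells (-1.13 ± 0.14, adjusted p = 4.48e-06), and Elovl6, a fatty acid elongase, was lower at -1.65 ± 0.22. The fractions do not overlap in any of the 3 genes. Scd2, another desaturase, was higher at 1.20 ± 0.25 (adjusted p = 0.00134; 0.0539 at the highest across the alternatives). At PD25 Fads1 stood at 4.59 ± 0.42, while Scd1 (-0.19 ± 0.14, adjusted p = 0.456) and Elovl6 (0.05 ± 0.22, adjusted p = 0.935) did not pass. The difference between the ages had adjusted p = 0.255 for Scd1 and adjusted p = 0.0922 for Elovl6.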
